A study of Chlorocebus sabaeus with 10 samples.

Results

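The transcripts described here encode proteins of the cytosolic ribosome. They were chosen by gene symbol: RPL or RPS followed by a digit, RPLP0 to RPLP2, or RPSA, leaving out the S6 kinases (RPS6K symbols) and RPS19BP1. Each symbol was represented by its transcript with the highest mean count. The rule found 30 transcripts of 30 genes among the 28078 transcripts of the table, and 25 of them were among the 7948 that passed the filter on low counts. In the table, 6660 rows carried a gene identifier in place of a symbol and could not be matched by the rule, so the ribosomal protein genes among them were not analysed here. For scale, a RefSeq gene table of another vervet assembly lists 84 symbols that match the rule, of which 28 were among these 30 (RPS4Y1 and RPS4Y2 were not listed). The 25 tested transcripts are therefore a part of the ribosome's protein genes, 12 for the small subunit, 10 for the large subunit, 2 for the stalk and 1 paralog.

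The cytosolic ribosome is built of a small subunit, which reads the mRNA, and a large subunit, which joins the amino acids. A stalk of acidic P proteins on the large subunit recruits the elongation factors. The proteins are needed in balanced amounts, and their mRNAs begin with a pyrimidine tract (the TOP motif) through which mTORC1 and LARP1 control their translation, so that cells can change ribosome production without a large change in mRNA level. In liver, hepatocytes use this machinery to make most plasma proteins. Several of the genes are also common reference genes in expression assays, which makes their spread between animals of practical interest.

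Liver biopsies came from 10 female vervet monkeys (Chlorocebus sabaeus), an Old World primate, all kept on chow before the study. For 6 weeks, 5 animals received a high fructose (HFr) diet and the 5 controls stayed on chow. The study's methods describe the diet groups as balanced by age and body weight. Its clinical measures give a higher mean age on HFr than on chow, a difference that was not significant there. Age was not a term in the fits. Each animal gave 1 library of polyadenylated RNA, so the p-values measure the spread between these animals, technical spread included.

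Total estimated counts lay between 2977282 and 4992505 per animal. Transcripts of the mitochondrial genome took 34.7% to 73.6% of them, which left 864571 to 2657103 nuclear counts. Levels are given as CPM, the counts relative to the TMM-scaled library size. HFr was set against chow in edgeR's quasi-likelihood framework, fitted to all 7948 tested transcripts at once. All 12 hepatocyte markers were tested, with ALB between 21647 and 45270 CPM. In such bulk samples, fewer cells of a type and less RNA per cell cannot be told apart. No transcript lengths were used, so levels are compared between animals and not between genes.

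No ribosomal protein transcript passed the test between the diets, and the estimated differences were small. In edgeR's quasi-likelihood test 0 of 25 passed the threshold after adjustment, where 0% of all tested transcripts did. DESeq2 also called 0 of the 25, beside 2 of all 7948 tested transcripts. At an unadjusted p under 0.05 the count was again 0 of 25 with both tools, beside 4.29% of all tested transcripts in edgeR and 4.16% in DESeq2. The animals of both diets overlapped for all 25, so 0 members were without overlap, beside 0.541% of all tested transcripts (0.214% with HFr above chow and 0.327% below). The estimate was higher on the HFr diet for 18 members and lower for 7. These counts ran from 14 and 11 without HFr animal 1 to 22 and 3 without chow animal 5. The median log2 fold change was 0.054, beside -0.00075 over all tested transcripts.

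The intervals limit how large a difference could have been missed. All 25 intervals (95%) lay above a fall by 1 on the log2 scale, and 24 of 25 lay below a rise by 1. The exception was RPL32, with an upper bound of 1.32. Apart from RPL32, the bounds ran from -0.59 (RPL35A) to 0.73 (RPL22L1).

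**Figure D1:**
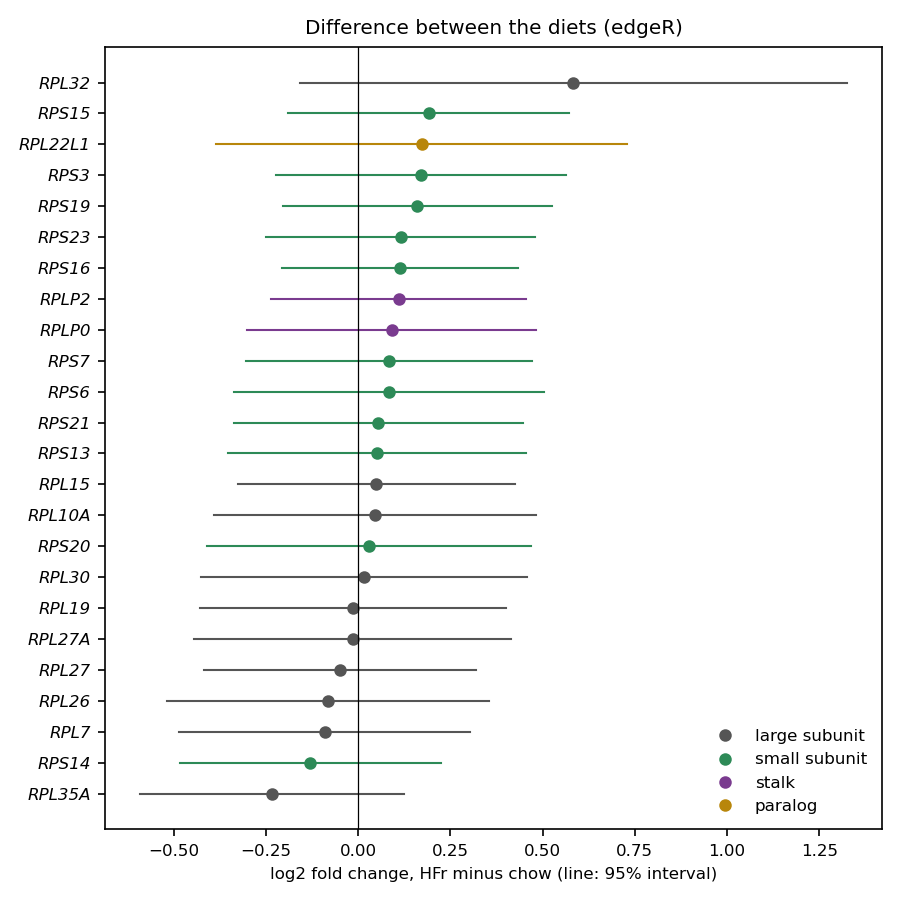
Log2 fold change of 24 of the 25 tested ribosomal protein transcripts, HFr minus chow (points), with the 95% interval from edgeR (lines), colored by subunit. The 24 intervals cross 0, from RPL35A at -0.23 to RPL32 at 0.58.

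Of the 12 small subunit transcripts, 11 had a higher estimate on the HFr diet and 1, RPS14, a lower one. Their median log2 fold change was 0.093. RPS14 lies on the platform of the small subunit and is known from 5q- syndrome, an anemia in which a copy is lost. It was at 88.6 ± 14.6 CPM (SD, n = 5) on HFr. On chow it was at 97.1 ± 8.29 CPM (SD, n = 5), and the log2 fold change was -0.13 (95% interval -0.48 to 0.22).

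RPS16, whose tail reaches the tRNA in the P site, had the tightest values. In HFr animals 1 to 5 it was at 242, 241, 255, 227 and 243 CPM. In chow animals 1 to 5 it was at 216, 212, 228, 233 and 227 CPM. The lowest HFr animal lay among the upper chow animals, and the other 4 HFr animals lay above all 5 chow animals. The log2 fold change was 0.11 (SE 0.15, 95% interval -0.21 to 0.43), with an unadjusted p of 0.461 in edgeR, which takes a transcript's spread in part from that of transcripts of similar level. Tests that use only the spread of RPS16 itself gave smaller p-values. In the study's equal-variance test on the deposited normalized values, RPS16 fell under an unadjusted threshold of 0.05 but not under the adjusted one. It was the 1 member of 25 to do so, beside 4.13% of all tested transcripts. A two-sided exact permutation test on log2(CPM + 1), added after the values were seen and run on all 25 members, gave p = 0.0238 for RPS16, where 0.00794 is the smallest p possible. RPS16 was the 1 member of 25 below 0.05 in that test, beside 3.9% of all tested transcripts, so the members' count is near the background. The gene is at chromosome 6:34039251-34042313 on the minus strand of ChlSab1.1, and its counts were fractional in all 10 animals, so that part of its reads was divided between transcripts.

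RPS6, the ribosomal substrate of the S6 kinases, varied more. It was at 477, 576, 641, 458 and 625 CPM in HFr animals 1 to 5 and at 424, 476, 683, 541 and 496 CPM in chow animals 1 to 5. The highest value of all was in a chow animal, and the groups overlapped over most of their range. The log2 fold change was 0.083 (SE 0.20, 95% interval -0.34 to 0.51).

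RPS20, a protein of the small subunit's head, was at 313, 231, 359.9, 255 and 234 CPM in HFr animals 1 to 5. In chow animals 1 to 5 it was at 257, 216, 288, 234 and 370.0 CPM. The highest animals were HFr 3 and chow 5, and the lowest was chow 2. The log2 fold change was 0.029 (95% interval -0.41 to 0.47).

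The largest small subunit estimate belonged to RPS15, with 213 ± 31.2 CPM on HFr and 186 ± 29.7 CPM on chow (log2 fold change 0.19, SE 0.18, 95% interval -0.19 to 0.57). RPS3, which lines the mRNA entry channel and also takes part in DNA repair, had a log2 fold change of 0.17 (95% interval -0.22 to 0.56). RPS19, the first gene linked to Diamond-Blackfan anemia, had 0.16 (95% interval -0.20 to 0.52). RPS7, RPS13, RPS21 and RPS23 had log2 fold changes between 0.051 and 0.12.

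The 10 large subunit transcripts were divided, with 4 estimates higher and 6 lower on HFr and a median log2 fold change of -0.015. RPL35A, another gene of Diamond-Blackfan anemia, had the lowest estimate. It was at 63.7, 55.8, 58.1, 43.1 and 47.3 CPM in HFr animals 1 to 5 and at 60.1, 56.3, 56.3, 66.7 and 75.8 CPM in chow animals 1 to 5. Animals HFr 2, HFr 4 and HFr 5 lay below all chow animals, and the other two lay among them. The log2 fold change was -0.23 (SE 0.17, 95% interval -0.59 to 0.12, unadjusted p = 0.183 in edgeR).

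RPL32 had the highest estimate and the lowest counts. It was at 3.77, 5.38, 8.88, 5.998 and 5.14 CPM in HFr animals 1 to 5 and at 7.08, 3.72, 2.57, 2.02 and 3.22 CPM in chow animals 1 to 5. Apart from chow 1, all chow animals lay below all HFr animals. The log2 fold change was 0.58 (SE 0.35, 95% interval -0.16 to 1.32, unadjusted p = 0.114 in edgeR). Without chow animal 1 it was 0.97, with an unadjusted p of 0.0110 and an adjusted p of 0.995 in edgeR. These values rest on 4.1 to 31.1 estimated counts per animal, which were fractional in all 10, and the transcript's spread between animals was 1.14 times that of counting alone.

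RPL19, a large subunit protein that takes part in a bridge to the small subunit, had nearly equal means of 454 ± 61.0 CPM on HFr and 459 ± 89.4 CPM on chow. Its log2 fold change was -0.015 (SE 0.19, 95% interval -0.43 to 0.40). RPL10A, which forms the side stalk that guides the tRNA out, was at 97.3 ± 25.4 CPM on HFr and 94.3 ± 13.9 CPM on chow. RPL26, which lies near the exit of the peptide tunnel, was at 195 ± 37.5 and 206 ± 45.1 CPM, and RPL30 at 155 ± 34.8 and 153 ± 33.0 CPM.

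Of the stalk, RPLP0 and RPLP2 were tested. RPLP0, the base to which the other P proteins bind and a frequent reference gene, was at 241, 279, 228, 246 and 342 CPM in HFr animals 1 to 5. In chow animals 1 to 5 it was at 221, 279.9, 247, 297 and 211 CPM. HFr 5 stood above the other 9 animals, which overlapped. The log2 fold change was 0.091 (SE 0.18, 95% interval -0.30 to 0.48). RPLP2 was at 76.6 ± 6.51 CPM on HFr and 71.2 ± 11.5 CPM on chow (log2 fold change 0.11, 95% interval -0.24 to 0.46).

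**Figure D2:**
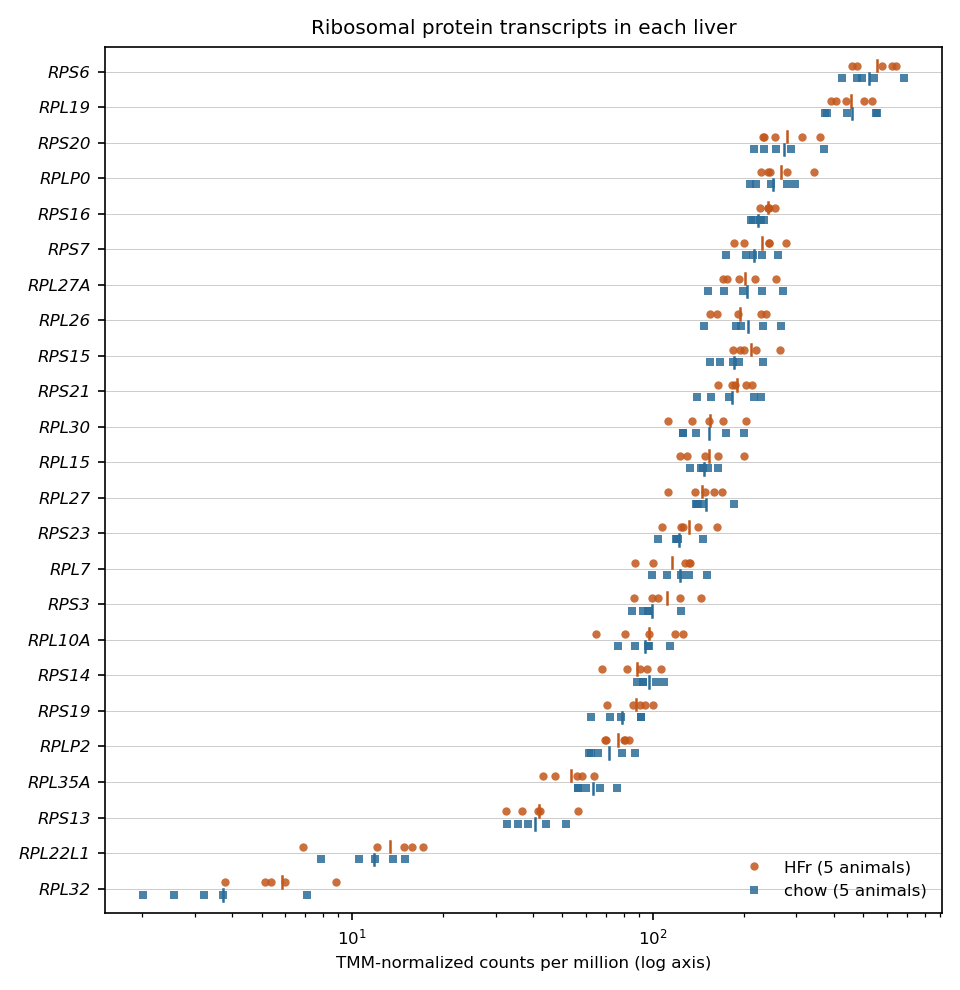
CPM (log axis) of 24 of the 25 tested ribosomal protein transcripts in each liver, with HFr animals as circles, chow animals as squares and vertical bars at the diet means (5 animals each). The diets overlap for all 24 shown, and RPS16 is packed most closely, between 212 and 255 CPM.

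Of the 6 paralogs of ribosomal proteins, 1 was tested, RPL22L1, the paralog of RPL22. It was at 15.8, 17.3, 14.9, 6.89 and 12.1 CPM in HFr animals 1 to 5 and at 11.9, 7.88, 15.04, 13.6 and 10.6 CPM in chow animals 1 to 5. Its lowest values were in HFr 4 and chow 2, and the log2 fold change was 0.17 (SE 0.26, 95% interval -0.39 to 0.73). RPL39L, a paralog best known from testis, had 3, 3, 0, 0 and 1 counts in HFr animals 1 to 5 and 0 in the 5 chow animals. A count of 0 allows up to 3 counts in a library, so a difference could not be judged at this depth. Without the filter on low counts, edgeR gave RPL39L an unadjusted p of 0.0159 and an adjusted p of 0.838. It was the 1 member of 27 under 0.05 there, beside 4.71% of all transcripts in that fit. RPL3L, the muscle paralog of RPL3, and RPL10L, the testis paralog of RPL10, had 0 counts in all 10 animals. The Y-linked RPS4Y2 also had 0 counts and RPS4Y1 had 1 count each in HFr 2 and HFr 5, in animals that were all female.

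Together the 30 transcripts took 0.980% ± 0.101 (SD, n = 5) of the nuclear counts on HFr and 0.957% ± 0.107 (SD, n = 5) on chow. In HFr animals 1 to 5 the share was 0.993%, 1.05%, 1.104%, 0.885% and 0.872%. In chow animals 1 to 5 it was 1.04%, 0.819%, 0.879%, 0.973% and 1.07%. The difference between the means was 0.0232 percentage points, smaller than either SD, and the lowest and highest of the 10 shares differed 1.35-fold. Of all counts the share was 0.433% ± 0.114 on HFr and 0.415% ± 0.116 on chow, and here the animals differed 2.36-fold. The mitochondrial share, by which both denominators differ, moved 2.12-fold between animals.

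**Figure D3:**
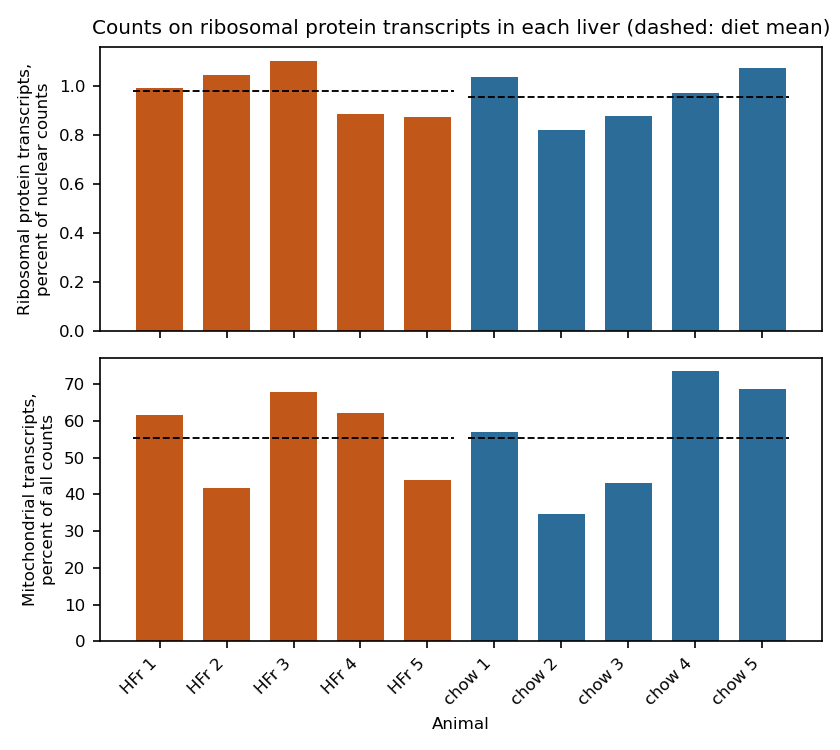
Percent of nuclear counts on the 30 ribosomal protein transcripts (top) and percent of all counts on mitochondrial transcripts (bottom) in each liver, with bars starting at 0 and dashed lines at the diet means. The ribosomal protein share runs from 0.819% in chow 2 to 1.104% in HFr 3, while the mitochondrial share runs from 34.7% to 73.6%.

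The ratio of small to large subunit counts within an animal needs no scaling between libraries. It was 1.30, 1.48, 1.39, 1.60 and 1.53 in HFr animals 1 to 5 and 1.27, 1.51, 1.40, 1.39 and 1.18 in chow animals 1 to 5. The means of 1.46 ± 0.119 (SD, n = 5) and 1.35 ± 0.127 (SD, n = 5) differed by less than either SD, and the groups overlapped. Without the most counted gene of each subunit, RPS6 and RPL19, the means were 1.56 ± 0.156 and 1.43 ± 0.153. Whether the small subunit transcripts differ from the large subunit ones in their response was not tested.

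The members varied little between animals of the same diet. The SD of log2(CPM + 1) within a diet, pooled over both diets, had a median of 0.234 over the 25 members, beside 0.363 over all tested transcripts. It lay below that overall median for 23 of 25, RPL32 and RPL22L1 being the exceptions. The members' median level was 148 CPM and that of all tested transcripts 14.4 CPM, and over all tested transcripts the SD fell with level (Spearman's rho -0.297), so these medians do not compare transcripts of equal level. Over the 10 animals the highest and lowest values of a member differed by a median of 1.66-fold, and by less than 2-fold for 23 of 25.

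RPS16 had an SD of 0.0583, rank 1 from below among the 7948 tested transcripts with TMM scaling. Its highest and lowest animals differed 1.203-fold, and its SD was 1.12 times the SD that counting alone gives (0.0519). RPLP2, with an SD of 0.180, was also among the 3 lowest members. When counts were scaled by library size alone, the SD of RPS16 was 0.435 and its rank 1399, and the members' median was 0.449 beside 0.560 over all tested transcripts. With the other scalings and pseudocounts and with each animal left out, RPS16 kept a rank from 1 to 3.

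At the other end stood RPL32 (SD 0.467), RPL22L1 (0.416), RPL10A (0.314), RPL30 (0.311) and RPL26 (0.300). RPL32 and RPL22L1 had few counts, and counting alone would give SDs of 0.410 and 0.229. RPL10A ran from 125 CPM in HFr 1 to 64.7 CPM in HFr 5. For RPS6, the SD of 0.241 was 6.96 times that of counting, the highest of the 25, and for 15 of 25 the SD was over 3 times that of counting. Shared reads did not separate the members by spread. The 12 members with whole counts in all animals had a median SD of 0.224 and the 13 with fractional counts 0.240.

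**Figure D4:**
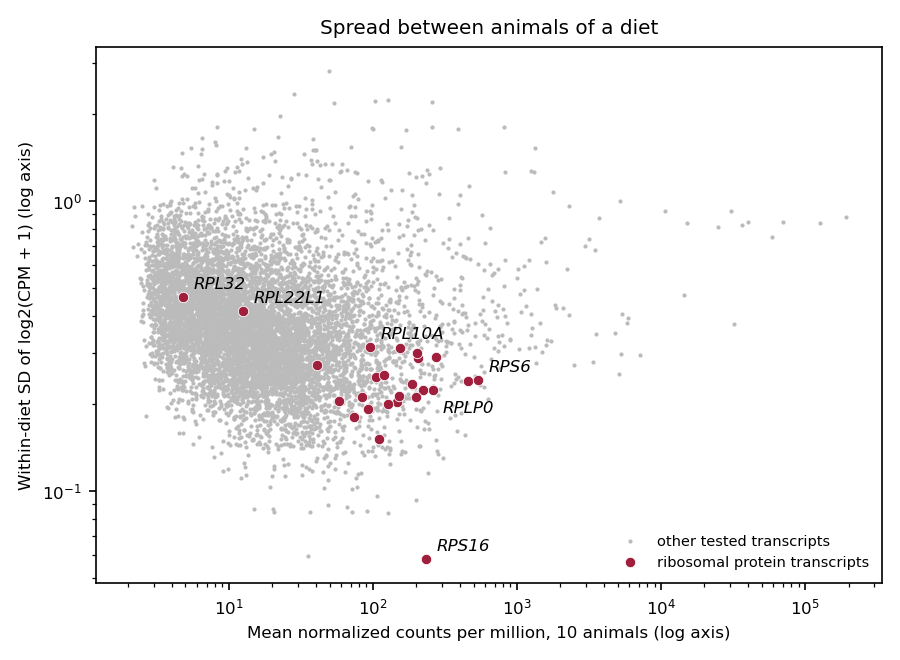
Within-diet SD of log2(CPM + 1) against the mean CPM over 10 animals (both axes log) for the tested transcripts, with the 25 ribosomal protein transcripts in red. RPS16 lies at the bottom with an SD of 0.0583, and RPL32 and RPL22L1 lie at low counts with SDs of 0.467 and 0.416.

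Much of what spread there was ran through whole animals. Each value was expressed as its deviation from the diet mean on the log2(CPM + 1) scale. The median deviation over the 25 members was 0.12, 0.067, 0.16, -0.26 and -0.081 in HFr animals 1 to 5. It was -0.080, -0.16, 0.021, 0.047 and 0.27 in chow animals 1 to 5. HFr 4 was the lowest HFr animal for 15 of 25 members and HFr 3 the highest for 10. Chow 2 was the lowest chow animal for 12 and chow 5 the highest for 14.

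The subunits moved together in most animals but not to the same extent. In HFr 3 all 10 large subunit transcripts lay above the diet mean, and 9 of 12 small subunit transcripts did. In HFr 4 the counts above the mean were 1 of 10 and 2 of 12. In chow 1 none of the 12 small subunit transcripts lay above the mean and 3 of 10 large subunit transcripts did, with median deviations of -0.15 and -0.037. The medians had opposite signs in chow 4, with 0.056 for the small and -0.099 for the large subunit, and in HFr 2, with 0.050 and -0.021.

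Pairs of members were correlated across the 10 animals, on values centered by diet that share library and scaling. The median Pearson r was 0.29 over 300 pairs, beside -0.00075 over all pairs of tested transcripts. An r over 0.5 was found for 107 pairs (35.7%), beside 10.6% of all pairs, and an r under -0.5 for 12 pairs (4%), beside 10.5%. As with the SDs, these values do not compare transcripts of equal level. The closest pairs were RPL27A with RPS20 (r = 0.94), RPL27A with RPS7 (0.94), RPS7 with RPL7 (0.93) and RPS13 with RPL30 (0.92). The ratio of RPL27A to RPS20 counts within an animal ran from 0.669 to 0.834 over the 10 animals, a 1.25-fold range, while the CPM ranged 1.78-fold for RPL27A and 1.71-fold for RPS20. This was the closest pair, so a narrow range of the ratio followed from that choice.

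RPL27A, a large subunit protein, illustrates the shared pattern. It was at 219, 193, 257, 171 and 176 CPM in HFr animals 1 to 5 and at 199, 153, 230.3, 172 and 272 CPM in chow animals 1 to 5. As for RPS20, the highest values were in HFr 3 and chow 5 and the lowest chow value was in chow 2. The means of 203 ± 35.3 and 205 ± 47.2 CPM were nearly equal.

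RPLP0 did not follow the other members. Its r with the mean of the other members was -0.42, and RPS15 (-0.34), RPL32 (-0.30) and RPS14 (-0.15) were also negative. For 15 members this r was over 0.5, up to 0.94 for RPS7, and for 6 it lay between 0 and 0.5. RPLP0 formed the most opposed pairs of all, with RPS20 (r = -0.78) and with RPL27A (-0.71). Its ratio to RPS20 counts within an animal ran from 0.570 in chow 5 to 1.46 in HFr 5, a 2.56-fold range that does not depend on scaling. RPS20 is its most opposed partner, so a wide range followed from that choice. The ratio of RPLP0 to RPS16 counts ran from 0.896 to 1.41, a 1.58-fold range. The ratio of RPLP0 to RPLP2, its partner in the stalk, ran from 2.67 to 4.92. The counts of RPLP0 were fractional in 9 of 10 animals.

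**Figure D5:**
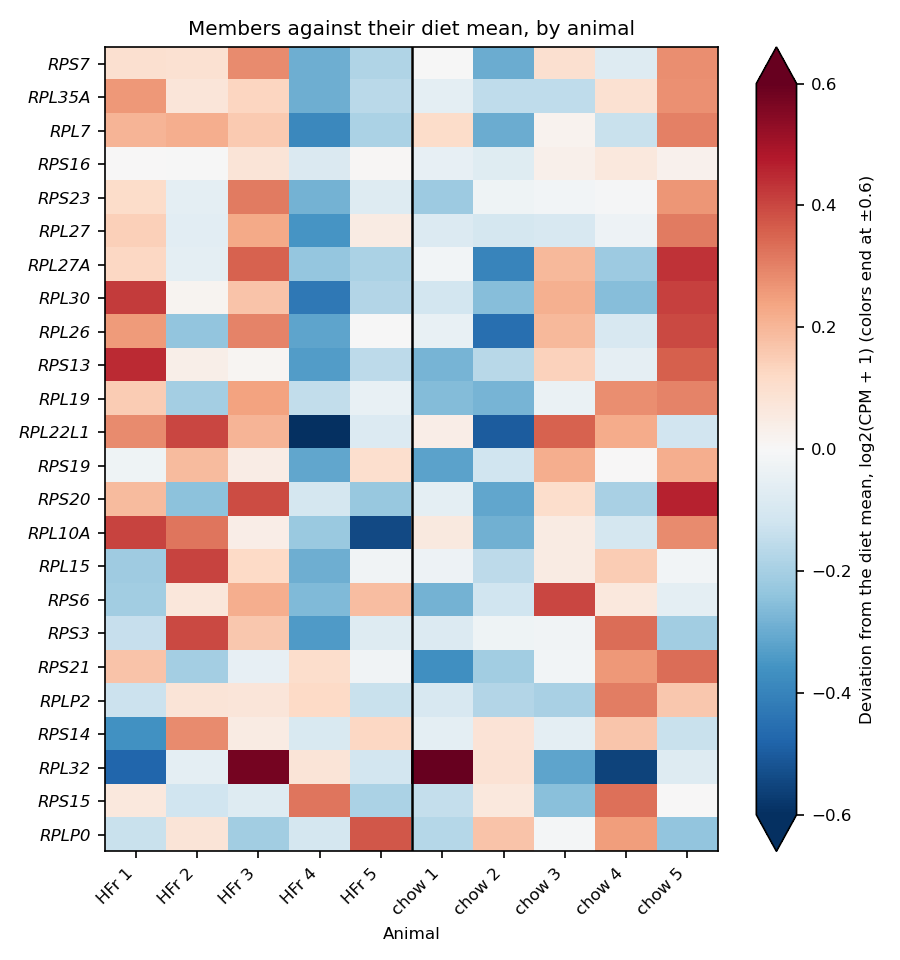
Deviation of 24 of the 25 tested members from the diet mean, log2(CPM + 1), by animal (colors end at ±0.6), with members ordered from the highest to the lowest r with the mean of the other members. HFr 4 and chow 2 are blue for most members and chow 5 red, whereas RPLP0, at the bottom, is highest in HFr 5.

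Markers of other cells also differed between the animals. The lymphocyte list (9 of 10 markers with a count, 5 tested) summed to 64.4 to 554 CPM on HFr and 178 to 733 CPM on chow, most of it from JCHAIN. The myeloid list (9 of 10 with a count, 6 tested) summed to 103 to 257 CPM on HFr and 63.3 to 241 CPM on chow. Chow 5, the highest chow animal for 14 members, had lymphocyte and myeloid sums of 733 and 239.9 CPM, and chow 2, the lowest for 12, had 229 and 63.3 CPM. JCHAIN alone was at 693 CPM in chow 5 and 199 CPM in chow 2. CD3D, CD3E, CD79B and NKG7 were lower in chow 5 than in chow 2, and GZMB and CD2 were higher. The lymphocyte sum thus follows JCHAIN and not the list as a whole. HFr 3 had 471 and 257 CPM and HFr 4 had 114 and 103 CPM. HFr 2 ran the other way, with the lowest lymphocyte sum of all animals (64.4 CPM, of which JCHAIN 33.6 CPM). It had a myeloid sum of 105 CPM and 15 of 25 members above the diet mean. The red cell sum was 345 CPM in chow 5 and 61.1 CPM in chow 2, and 335 CPM in HFr 3 and 204 CPM in HFr 4. The stellate and fibroblast sum was 655 and 212 CPM in the same chow animals and 381 and 251 CPM in the same HFr animals, but it was highest in chow 1 (779.9 CPM), where the members lay low. The hepatocyte sum was 62172 CPM in chow 5 and 72554 CPM in chow 2, and 54187 CPM in HFr 3 and 54598 CPM in HFr 4. The mitochondrial share was 68.7% in chow 5 and 34.7% in chow 2, and 67.8% in HFr 3 and 62.2% in HFr 4. It was highest in chow 4 (73.6%), which also had the highest chow myeloid sum (241 CPM) but a median deviation of the members of 0.047. The lowest HFr shares were 41.8% in HFr 2 and 44.0% in HFr 5, where the members' median deviations were 0.067 and -0.081. The part of other cells and of the mitochondrial share in the members' spread was not tested.

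The transcripts most like the members' mean over the 10 animals were PPP2R5A, a regulatory subunit of protein phosphatase 2A (r = 0.98), B2M, the light chain of class I MHC (0.96), the unnamed ENSCSAG00000000483 (0.95), CTR9 of the PAF1 complex (0.95) and HBP1, a transcriptional repressor (0.95). PPP2R5A was at 80.3, 80.5, 86.7, 56.0 and 62.3 CPM in HFr animals 1 to 5 and at 58.7, 53.4, 74.8, 69.2 and 78.6 CPM in chow animals 1 to 5. It too was lowest in HFr 4 and chow 2. An r over 0.8 with the members' mean was found for 144 of 7923 other transcripts (1.82%). Unnamed rows are among these others, and whether any of them is a ribosomal protein gene was not determined. In a check added after the values were seen, the order depended on scaling, and with library size alone PPP2R5A had rank 198 (r = 0.96) and B2M rank 2982 (r = 0.82).

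Genes that make and run ribosomes were read from 5 further lists. In edgeR 0 of their transcripts passed the adjusted threshold, beside 0 of all 7948 tested transcripts. Of 16 other TOP mRNAs and ubiquitin fusion ribosomal proteins, 10 entered the test. For 0 of them was the unadjusted p under 0.05 in edgeR, beside 4.29% of all tested transcripts. Their median log2 fold change of 0.059 was close to that of the members. RACK1, a scaffold on the small subunit, was at 318 ± 16.7 CPM on HFr and 293 ± 35.9 CPM on chow. The elongation factors EEF1A1 and EEF2 had log2 fold changes of -0.039 and -0.060.

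Translation initiation factors (19 tested of 31) had 14 lower and 5 higher estimates, with a median log2 fold change of -0.12. Ribosome biogenesis and RNA polymerase I genes (29 tested of 41) had 24 lower and 5 higher, with a median of -0.17. Over all tested transcripts 3990 estimates were lower and 3958 higher. The direction counts of these lists were not checked with animals left out, and a shared shift of a list was not tested. Neither list held a transcript with an unadjusted p under 0.05 in edgeR, beside 4.29% of all tested transcripts. The smallest p of the biogenesis list was that of NOP58, a core protein of the box C/D small nucleolar particles that guide rRNA methylation. It was at 35.7 ± 10.4 CPM on HFr and 55.3 ± 29.0 CPM on chow, with 102 CPM in chow 5 alone (log2 fold change -0.63, SE 0.32, unadjusted p = 0.0661 and adjusted p = 0.9996 in edgeR).

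Among the mTORC1, LARP1 and MYC genes (13 tested of 18), 1 had an unadjusted p under 0.05. MYC, a transcription factor that drives ribosome biogenesis, was at 17.3, 14.8, 11.3, 2.22 and 6.33 CPM in HFr animals 1 to 5. In chow animals 1 to 5 it was at 18.7, 15.5, 31.2, 9.60 and 28.5 CPM. The diets overlapped, and the log2 fold change was -1.04 (SE 0.43, unadjusted p = 0.0295, adjusted p = 0.9996 in edgeR). Lower estimates with an unadjusted p under 0.05 made up 2.23% of all tested transcripts. MTOR itself was at 35.2 ± 3.87 and 31.7 ± 3.62 CPM, a log2 fold change of 0.15 (95% interval -0.18 to 0.47).

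Mitochondrial ribosomal proteins (52 tested of 59), which serve the separate ribosome of the organelle, had 31 higher and 21 lower estimates. Their median log2 fold change was 0.059 and their median SD 0.312. Of them 1 had an unadjusted p under 0.05, MRPL53, at 10.9 ± 1.87 CPM on HFr and 7.25 ± 1.28 CPM on chow (log2 fold change 0.56, SE 0.21, unadjusted p = 0.0201, adjusted p = 0.9996 in edgeR). Higher estimates with such a p made up 2.06% of all tested transcripts.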

How the data were processed

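RNA-Seq of polyadenylated RNA from 10 livers was analysed. Paired-end reads of 100 bases were mapped by the authors to ChlSab1.1 and quantified over Ensembl release 93 transcripts with an expectation-maximization method in Partek Flow. The submitters' processing notes name CASAVA 1.8, FastQC and STAR 2.5.3a. The deposited estimated counts are not normalized. The deposited normalized signal was scaled with TMM by the authors and used only for their equal-variance test. Counts were rounded, filtered with filterByExpr (minimum count 10, minimum total 15), scaled with TMM and compared with edgeR 4.0.16 (R 4.3.3) with diet as the only term. P-values were adjusted by Benjamini-Hochberg over all tested transcripts at a threshold of 0.05. limma 3.58.1 and DESeq2 1.42.0 were alternatives. Spread was computed on log2(CPM + 1).

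The procedure was tested on simulated data. The members and lists were chosen with earlier results of these data known. Named genes are the 5 members with the highest mean CPM, the 5 with the largest and 3 with the smallest SD, members with a known further role, paralogs, members past an unadjusted threshold or without overlap, and the 5 transcripts most like the members' mean. RPL27A, RPL35A, RPS14, RPS15, RPS7, RPL7, RPS13, RPS21, RPS23, RPL15 and RPL27, and the genes of other lists, were named after their values were seen. Promoter and protein sequences were not used here. The values of some genes, among them 1 tested member, are not reported here, although they are counted in the totals.

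Of the further marker lists, the test held 1 red cell, 2 cholangiocyte, 5 stellate and fibroblast and 6 endothelial transcripts. In edgeR 0 of them passed the adjusted threshold, beside 0 of all 7948 tested transcripts. An unadjusted p under 0.05 in edgeR was found for 1 of 5 stellate and fibroblast and 1 of 6 endothelial transcripts, beside 4.29% of all tested transcripts. Of the cycling cell list 0 transcripts were tested, so it could not be judged this way.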

Additional observations from a re-analysis of the deposited data

Results flagged for a closer look

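RPL27, a large subunit protein, was at 186 CPM in chow animal 5, apart from the other 4 chow animals, which lay between 138.8 and 147 CPM. The gap to the nearest of them took 0.837 of the group's range. It was the 1 flagged among the 54 groups of 5 animals examined this way. Chance flags about 1 in 20, so 1 of 54 is not above the chance rate.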

How the results depend on the processing

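Counts of members past the adjusted threshold stayed at 0 under the alternatives run, where 0 to 2 of all tested transcripts passed it. The count at an unadjusted p under 0.05 became 1 with the study's equal-variance test (RPS16) and 1 without the filter on low counts (RPL39L), beside 4.13% and 4.71% of all transcripts under these settings. The count without overlap became 1 without that filter (RPS16). With each animal left out, both counts ran from 0 to 1. The count at an unadjusted p was 1 without chow replicate 1 (RPL32), beside 4.53% of all transcripts in that fit. The count without overlap was 1 without HFr replicate 4 (RPS16) and without chow replicate 1 (RPL32). With fewer animals in a diet a lack of overlap is easier to reach. The share of all transcripts without overlap was not computed for these settings or without the filter. With library size alone, the median SD of the members moved to 0.449. The median log2 fold change of the members ran from 0.0123 without chow replicate 2 to 0.115 without chow replicate 5. For the large subunit it ran from -0.10 without HFr replicate 3 to 0.049 without chow replicate 5, so its sign rests on single animals. For the small subunit it ran from 0.051 to 0.14.

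Estimates near 0 changed sign. RPL19 became 0.020 with the study's test and 0.022 with library size alone, and RPL27A became 0.022 with the study's test. With each animal left out, the log2 fold change ran from -0.069 to 0.16 for RPL10A, -0.11 to 0.13 for RPL30, -0.085 to 0.14 for RPS13, -0.089 to 0.16 for RPS20, -0.065 to 0.11 for RPL15, -0.088 to 0.058 for RPL19, -0.12 to 0.10 for RPL27A, -0.00050 to 0.16 for RPS7, -0.12 to 0.033 for RPL27, -0.015 to 0.15 for RPLP0, -0.031 to 0.14 for RPS21 and -0.18 to 0.023 for RPL26. The cause was not tested.

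The labels name no pairing of same-numbered animals, and the values did not show one. Over all tested transcripts, deviations of same-numbered animals had correlations of -0.038, -0.0052, -0.043, 0.099 and -0.29, and no HFr animal correlated best with its own number. Such correlations cannot exclude a matching by age or body weight. With the replicate number as a block, 0 members had an unadjusted p under 0.05, 271 transcripts of all tested did in place of 341, and RPL27A became 0.00091.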

Other observations

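Some liver transcripts outside translation followed the ribosomal protein transcripts across animals. They were picked after their values were seen, from a ranking by r, so their high r followed from that choice. The same ranking held B2M at rank 2, LYZ of the myeloid list at rank 9 (r = 0.94) and CD52 at rank 13 (0.93). IGFBP1, a secreted binding protein for insulin-like growth factors that insulin lowers, ranked 7 among 7923 transcripts by r with the members' mean (0.95). It was at 1859, 1174, 1746, 203 and 261 CPM in HFr animals 1 to 5 and at 676, 603, 1441, 1606 and 2885 CPM in chow animals 1 to 5. The 2 HFr animals with the lowest median deviation of the members, HFr 4 and HFr 5, thus had the lowest IGFBP1, and chow 5 the highest. IRS2, an adaptor of the insulin receptor, ranked 8 (r = 0.95). It ran from 18.9 CPM in HFr 4 to 182 CPM in chow 5. With RLE scaling the r values were 0.95 and 0.95, and with upper quartile scaling 0.91 and 0.90. With library size alone they were 0.18 and 0.10.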
